A study of Mus musculus with 12 samples.

Results

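The 10 genes described here encode the enzymes that build purine nucleotides, GMP and CTP from small precursors: *Ppat*, *Gart*, *Pfas*, *Paics*, *Adsl*, *Atic*, *Impdh1*, *Impdh2*, *Gmps* and *Ctps*. They were taken by name from the 56691 mouse genes of the count table, and all 10 were among the 15138 genes with at least 30 reads in sum that were tested. These genes and the lists below were chosen with earlier results of these data known. Their counts beside the shares of all genes are therefore descriptions and not tests of the set. Messenger RNA was sequenced from the 3′ end in splenic CD4+ T cells of 12 mice of the genotype Tg4 *Nr4a3*-Tocky *Il10*-GFP, which formed 4 groups of 3. Mice in the study were of both sexes and typically 6 to 8 weeks old. All carried the transgenic Tg4 T cell receptor for a myelin basic protein peptide, a Timer reporter of *Nr4a3* and an *Il10*-GFP reporter, and received 4 mg/kg of [4Y]-MBP peptide. After 24 h the isotype group was given a pool of rat IgG1 and rat IgG2a, another group anti-PD-L1 (clone MIH5), another anti-Lag3 (clone C9B7W), and the CB group both blocking antibodies pooled in equal parts, at an antibody dose of 0.5 mg. A second peptide dose of 0.4 mg/kg followed 30 min later in every mouse, and the spleen was removed 12 h after that. Cells that held both the blue and the red form of Timer, which marks recent *Nr4a3* transcription, were sorted as responders with a gate against other lineages. The libraries thus describe cells sorted as responders from mice with this transgenic receptor, and cells outside the gate were not sampled. The 4 conditions, each stained with CD4 antibody of another colour, were pooled and sorted in batches of 4, and which samples shared a batch is not given in the sources used here. The study attributed the second component of its principal component analysis largely to sort batches. The main fit used here has no term for batch. The question asked here was how the transcripts of these enzymes varied between control, single blockade and combined blockade.

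Purine nucleotides are made stepwise on a ribose phosphate. PPAT catalyses the committed step, in which phosphoribosyl pyrophosphate receives an amino group from glutamine, and GART, PFAS, PAICS, ADSL and ATIC carry the chain on to IMP, with formyl groups from the folate cycle. IMP is the branch point: IMPDH1 and IMPDH2 oxidise it to XMP, which GMPS converts to GMP, while ADSL acts a second time on the way to AMP. CTPS aminates UTP to CTP, the last step of pyrimidine nucleotide synthesis. Activated T cells are known to raise this synthesis before they divide, and IMPDH is the target of mycophenolate, an immunosuppressant that acts on lymphocytes.

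The genes lie on 9 chromosomes of GRCm38, and the positions below are of the gene models of GENCODE M21. *Ppat* (chr5:76913249-76951578, minus strand) and *Paics* (chr5:76951307-76967509, plus strand) are neighbours that run in opposite directions, and their RefSeq start sites are 276 bases apart. Promoter windows of 300 bases, from 250 bases before the RefSeq start to 50 after it, were at hand for 9 of the 10 genes (11 windows, GRCm38.p6), the exception being *Pfas*. They were searched for the E-box CACGTG, the core bound by MYC-MAX dimers, which reads the same on both strands. It occurred once each in the windows of *Paics*, *Atic* and *Impdh2*, its first base at positions -203, -7 and -110 from the start, so 3 of the 9 genes (33.3%) had it against 8.1% of the 27025 genes with a window, and 3 of 11 windows (27.3%) against 7.2% of 32851. The windows of these 3 genes and of *Ppat*, the neighbour of *Paics*, are printed 5′ to 3′ on the strand of the gene with the E-box in capitals, to show where the matches lie, with *Ppat* as the gene that starts beside *Paics* on the other strand.
Ppat, chr5:76951529-76951828, minus strand: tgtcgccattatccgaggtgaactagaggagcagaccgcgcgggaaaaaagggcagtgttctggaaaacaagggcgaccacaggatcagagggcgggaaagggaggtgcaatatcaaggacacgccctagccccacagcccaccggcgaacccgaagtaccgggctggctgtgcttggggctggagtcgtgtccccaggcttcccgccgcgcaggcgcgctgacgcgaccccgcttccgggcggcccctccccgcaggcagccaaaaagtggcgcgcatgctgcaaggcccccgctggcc
Paics, chr5:76951052-76951351, plus strand: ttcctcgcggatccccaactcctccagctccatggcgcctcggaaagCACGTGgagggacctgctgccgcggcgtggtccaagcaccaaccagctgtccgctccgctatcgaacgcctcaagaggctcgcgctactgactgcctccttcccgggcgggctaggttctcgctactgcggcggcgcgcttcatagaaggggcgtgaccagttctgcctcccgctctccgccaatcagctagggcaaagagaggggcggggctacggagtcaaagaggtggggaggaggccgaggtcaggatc
Atic, chr1:71556906-71557205, plus strand: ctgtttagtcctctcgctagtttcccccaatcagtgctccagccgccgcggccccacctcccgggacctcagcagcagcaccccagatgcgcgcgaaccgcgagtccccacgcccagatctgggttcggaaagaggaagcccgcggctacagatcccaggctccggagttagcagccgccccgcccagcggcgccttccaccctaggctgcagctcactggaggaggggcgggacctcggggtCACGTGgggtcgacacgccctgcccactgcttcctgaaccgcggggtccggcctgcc
Impdh2, chr9:108560186-108560485, plus strand: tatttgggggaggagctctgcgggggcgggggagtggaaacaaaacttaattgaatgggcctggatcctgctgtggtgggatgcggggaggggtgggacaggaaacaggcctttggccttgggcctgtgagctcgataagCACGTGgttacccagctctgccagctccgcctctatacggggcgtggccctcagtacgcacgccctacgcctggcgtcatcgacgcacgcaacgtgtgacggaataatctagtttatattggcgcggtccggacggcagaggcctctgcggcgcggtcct
A match is a description of these letters and not of binding. The other 6 genes with a window, *Ppat*, *Gart*, *Adsl*, *Impdh1*, *Gmps* and *Ctps*, had no CACGTG within it. Of the 5 genes with every CB sample above every isotype sample, *Atic* and *Impdh2* had the E-box and *Ppat*, *Gart* and *Ctps* had none, while *Paics* had it and its groups overlapped.

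Libraries held between 16449370 and 22151025 reads on genes, and the 10 enzymes had between 498 (*Impdh1*) and 11197 (*Paics*) reads in a library. Values are given as CPM, read counts scaled to the TMM-adjusted library size, and levels of different genes are not ranked. All 6 CD4 T cell markers were present, and their summed level was 2212 to 2330 CPM in the isotype group and 1917 to 2053 CPM in the CB group. The 4 erythroid markers summed to 158 to 307 CPM in the isotype group, 113 to 145 CPM in the CB group and 120.5 to 146 CPM in the anti-PD-L1 group. Myeloid (4 of 5 with reads, *Cd14* at 0), NK (3 of 3) and platelet (3 of 3) markers each summed to at most 14.3 CPM in any library. The CD8 markers, nearly all *Cd8b1* with *Cd8a* at no more than 3.24 CPM, came to 40.9 to 45.3 CPM in the isotype, 25.05 to 33.2 CPM in the CB, 24.6 to 30.5 CPM in the anti-PD-L1 and 29.2 to 46.4 CPM in the anti-Lag3 group. The isotype samples thus did not overlap the CB samples in the CD4, erythroid and CD8 markers, nor the anti-PD-L1 samples in the erythroid and CD8 markers, and the part of this in the values below was not tested. In RNA from sorted populations, fewer cells with a transcript and less of it per cell cannot be told apart.

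The combination was compared with the isotype pool first. In CB mice 8 of the 10 transcripts had a higher fitted level than in isotype mice, against 48.8% of all genes tested, and the median log2 fold change of the 10 was 0.25, where that of all genes was 0. The differences were small, with log2 fold changes from -0.15 for *Impdh1* to 0.47 for *Ppat*. None of the 10 passed the adjusted threshold of 0.05 in edgeR's quasi-likelihood test, where 4.29% of all genes did. At an unadjusted p under 0.05 there were 3 (*Ppat*, *Gart* and *Impdh2*), all higher, against 7.64% of all genes in that direction. DESeq2's Wald test called 2 of them, *Gart* (adjusted p = 0.0121) and *Impdh2* (adjusted p = 0.00855), where it called 6.06% of all genes. Every CB sample lay above every isotype sample for 5 of the 10 (*Ppat*, *Gart*, *Atic*, *Impdh2* and *Ctps*), and 10.4% of all genes tested behaved so; for none of the 10 was every CB sample lower (9.62% of all genes). Without isotype sample 1 the count was 8, against 14.9% of all genes with that sample left out, as this sample was the highest of its group in *Pfas*, *Adsl* and *Gmps*.

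**Figure D1:**
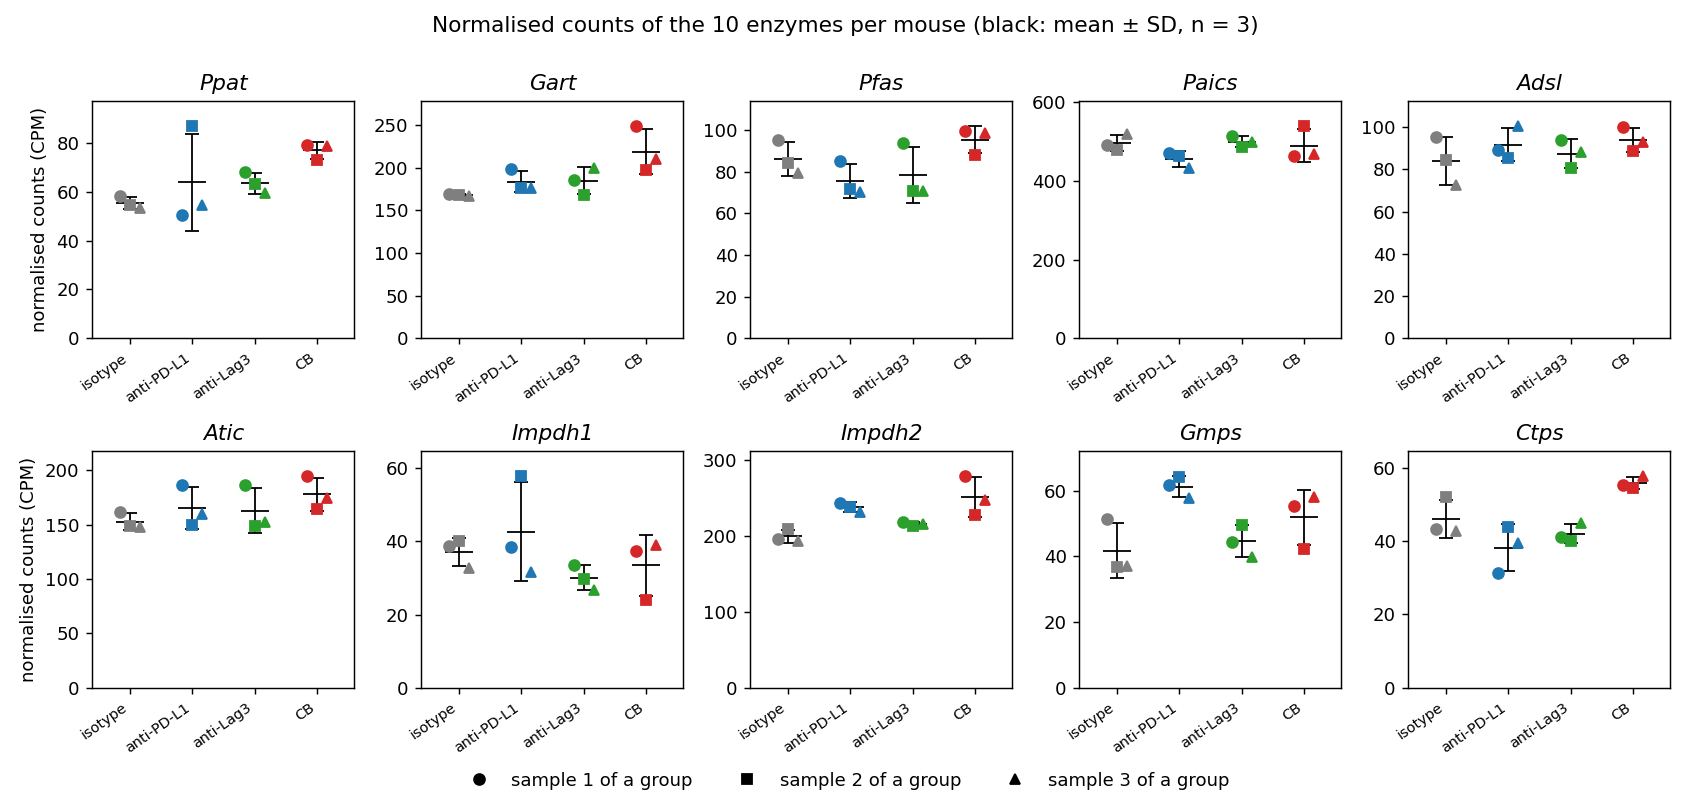
Each panel plots the normalised counts (CPM) of 1 enzyme in each of the 12 mice by group, with symbols for the sample number and black bars for the mean ± SD of 3 mice, on axes that start at 0. The CB samples lie above the isotype samples in *Ppat*, *Gart*, *Atic*, *Impdh2* and *Ctps*, whereas in *Paics* these groups overlap, and anti-PD-L1 sample 2 stands high in *Ppat* and *Impdh1*.

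*Ppat* (ENSMUSG00000029246), the gene of the committed step, had 58.2, 54.8 and 53.2 CPM in the 3 isotype samples and 79.1, 72.9 and 78.8 CPM in the 3 CB samples. Its anti-Lag3 samples lay between these groups at 68.0, 63.3 and 59.4 CPM. In the anti-PD-L1 group it had 50.5, 86.8 and 54.7 CPM, so that sample 2 of that group was the highest of all 12 and sample 1 the lowest. The CB and isotype samples were well separated, with a log2 fold change of 0.47, or 1.39-fold, its standard error being 0.17 (adjusted p = 0.134). Its first exons overlap those of *Paics* by 272 bases on the other strand, away from the 3′ ends where reads were collected.

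*Gart* (ENSMUSG00000022962, chr16:91621186-91646952, minus strand) encodes a trifunctional protein of the early chain and of the first formyl transfer. Its isotype samples were nearly identical, at 169, 168 and 167 CPM, and its CB samples were at 248, 197 and 210.1 CPM. The anti-PD-L1 samples (198, 176 and 176 CPM) were also all above the isotype group, and the anti-Lag3 samples (186, 168 and 200.1 CPM) overlapped it. CB exceeded isotype by a log2 difference of 0.38 (standard error 0.11), and the adjusted p of 0.0525 was just outside the threshold. It came inside it without CB sample 2 (adjusted p = 0.0358) or anti-PD-L1 sample 1 (0.0469), and was 0.306 without CB sample 1, the highest of the CB samples. An antisense gene over its 3′ end, *Gm15964*, had 0 reads.

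The next enzymes of the chain had smaller differences. *Pfas* (ENSMUSG00000020899, chr11:68985697-69008460, minus strand), which uses glutamine to make the amidine intermediate, had 79.2 to 95.1 CPM in isotype mice and 87.9 to 99.4 CPM in CB mice. Its log2 fold change was 0.14, with a 95% interval of -0.15 to 0.44, and was 0.08 without isotype sample 3 and 0.22 without isotype sample 1. *Paics* (ENSMUSG00000029247), the bifunctional enzyme that adds the carboxyl group and the aspartate, had 492, 478.5 and 518.5 CPM in isotype mice and 462, 538.5 and 468 CPM in CB mice. The groups overlapped, and the log2 fold change was -0.02 with an interval of -0.20 to 0.16, the narrowest of the 10. The neighbours *Ppat* and *Paics* thus had different CB values side by side, and the difference between their fold changes was not tested.

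*Adsl* (ENSMUSG00000022407, chr15:80948490-80970946, plus strand), which releases fumarate both before IMP and on the AMP branch, had 72.5 to 95.4 CPM in isotype mice and 88.7 to 100.1 CPM in CB mice, with a log2 fold change of 0.16 (interval -0.12 to 0.44). This was 0.06 without isotype sample 3, the lowest of its group, and 0.26 without isotype sample 1. *Atic* (ENSMUSG00000026192, chr1:71557150-71579631, plus strand), which adds the second formyl group and closes the ring to IMP, had 162, 149 and 148 CPM in isotype mice and 195, 164.5 and 174 CPM in CB mice. All CB samples were above all isotype samples, by as little as 164.5 against 162 CPM. The log2 fold change of *Atic* was 0.22 (interval -0.03 to 0.47), with an adjusted p of 0.397.

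On the branch to GMP, *Impdh2* and *Impdh1* were fitted with opposite signs, and the difference between them was not tested. *Impdh2* (ENSMUSG00000062867, chr9:108560286-108565584, plus strand) had 197, 209.5 and 194 CPM in isotype mice and 279, 227 and 248 CPM in CB mice. The log2 fold change was 0.33 or 1.26-fold (standard error 0.10), with an adjusted p of 0.0641. Without CB sample 2 the adjusted p was 0.0347, and it reached 0.323 as other single samples were left out. *Impdh1* (ENSMUSG00000003500, chr6:29200434-29216364, minus strand), the other isoform, had 38.8, 40.0 and 32.8 CPM in isotype mice and 37.5, 23.95 and 39.0 CPM in CB mice. Its log2 fold change was -0.15, the lowest of the 10, with a wide interval of -0.62 to 0.32, and it was 0.04 without CB sample 2, which held the lowest *Impdh1* value of all 12 mice. The last 48 bases of *Impdh2* overlap *Ndufaf3* on the other strand, and a processed pseudogene, *Impdh2-ps*, matches its 3′ end at 99.8% over 435 bases, so a part of its reads is uncertain; *Impdh2-ps* was assigned 812 reads in all against 52621 for *Impdh2*.

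*Gmps* (ENSMUSG00000027823, chr3:63976106-64022579, plus strand) had 51.4, 36.9 and 37.0 CPM in isotype mice and 55.4, 42.2 and 58.0 CPM in CB mice, which overlapped. Its log2 fold change was 0.31 (interval -0.06 to 0.68), and 0.49 without isotype sample 1. *Ctps* (ENSMUSG00000028633, chr4:120539868-120570276, minus strand) had 43.4, 52.1 and 42.8 CPM in isotype mice and 55.3, 54.6 and 57.7 CPM in CB mice. The CB samples were the 3 highest of all 12 and close to each other, with an SD of 1.66 CPM (n = 3). The log2 fold change against isotype was 0.28 (interval -0.08 to 0.64), with an adjusted p of 0.459.

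**Figure D2:**
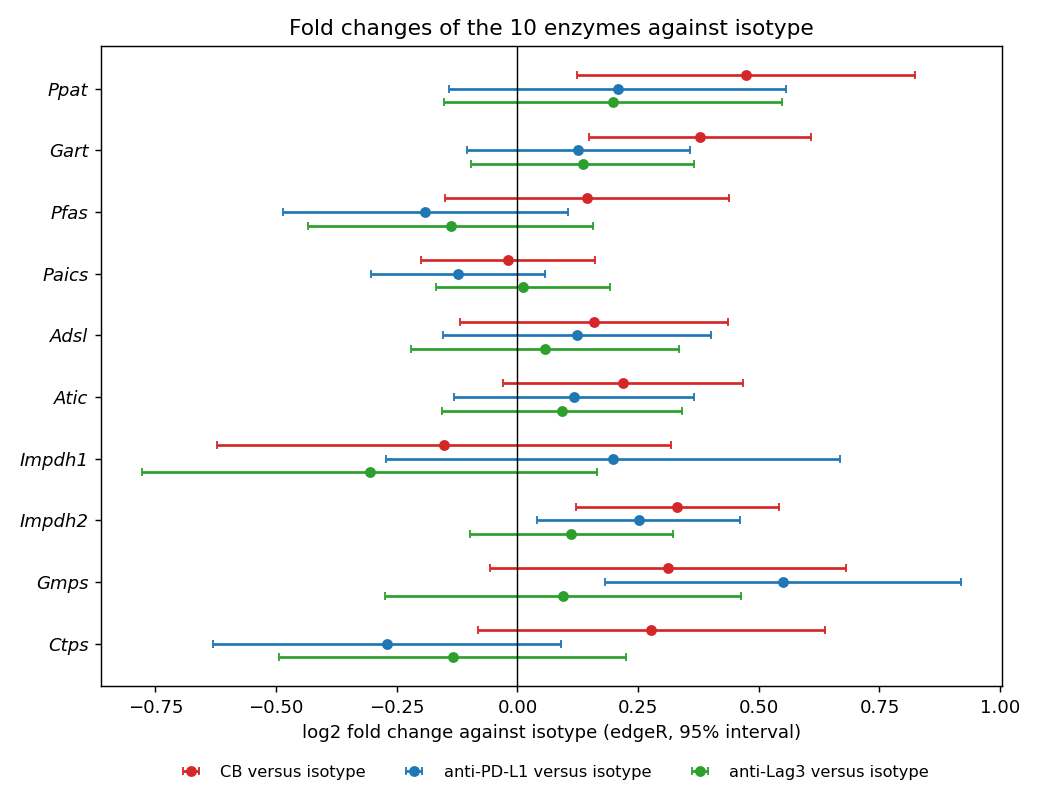
Points give the log2 fold change of each enzyme against the isotype group in CB (red), anti-PD-L1 (blue) and anti-Lag3 (green), and bars the 95% interval from the edgeR fit to 12 mice. In CB the intervals of *Ppat*, *Gart* and *Impdh2* lie above 0, and with anti-PD-L1 those of *Impdh2* and *Gmps* do. All 3 comparisons share the isotype samples.

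Anti-PD-L1 alone was compared with isotype to see what single blockade did. The largest difference was in *Gmps*, which had 61.8, 64.1 and 57.7 CPM with anti-PD-L1 against 36.9 to 51.4 CPM with isotype, all 3 samples above the isotype range. Its log2 fold change was 0.55 or 1.46-fold (standard error 0.18, adjusted p = 0.402). *Impdh2*, at 244, 239 and 231 CPM, was also above every isotype sample, with a log2 difference of 0.25 and an adjusted p of 0.541 (standard error 0.10). Of the enzymes from IMP to GMP, *Gmps* and *Impdh2* thus had higher values in all 3 mice while *Impdh1* (38.4, 57.9 and 31.7 CPM) overlapped the isotype group, and *Gart* was the third gene of that kind, so 3 of 10 lay above the isotype range against 5.34% of all genes. *Ctps* lay the other way, at 31.2, 43.9 and 39.5 CPM and a log2 fold change of -0.27 (interval -0.63 to 0.09), which was -0.15 without anti-PD-L1 sample 1. *Paics*, at 472, 464 and 432 CPM, was below every isotype sample (6.46% of all genes), with a log2 fold change of -0.12 (interval -0.30 to 0.06). By edgeR 0 of the 10 were called, where 0.0330% of all genes were (5 genes), and 2 had an unadjusted p under 0.05 against 7.84% of all genes, or 1 without isotype sample 1 or 3 or anti-PD-L1 sample 1. With 1 sample left out, edgeR called 0% to 0.0670% of all genes. DESeq2 called 0 of the 10 as well, and 0.370% of all genes.

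With anti-Lag3 alone, 7 of the 10 had a higher fitted level than with isotype, against 49.4% of all genes. The log2 fold changes ran from -0.31 for *Impdh1* (33.6, 29.8 and 26.8 CPM, interval -0.78 to 0.17) to 0.20 for *Ppat* (interval -0.15 to 0.55), with a median of 0.07. Without anti-Lag3 sample 1 the count was 5 of 10 and the median -0.00174. Leaving out isotype sample 1 moved the median to 0.11, isotype sample 2 to 0.04 and isotype sample 3 to 0.03. *Ppat* and *Impdh2* were higher in every anti-Lag3 sample than in every isotype sample, 2 of 10 against 5.25% of all genes, and *Impdh2* was tightly grouped at 219, 213 and 216.5 CPM. EdgeR called 0 of the 10, as it did of all genes (0%), and 0 had an unadjusted p under 0.05 (5.21% of all genes); DESeq2 called 0, and 0.0595% of all genes.

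CB was then compared with each antibody alone. *Ctps* differed most: its CB samples (54.6 to 57.7 CPM) were above every anti-PD-L1 sample (31.2 to 43.9 CPM) and every anti-Lag3 sample (41.2, 39.9 and 44.9 CPM). The log2 fold changes were 0.55 against anti-PD-L1 (standard error 0.18, adjusted p = 0.242) and 0.41 in the comparison with anti-Lag3 (standard error 0.17, adjusted p = 0.434). *Pfas* was higher in CB than in every anti-PD-L1 sample (85.0, 71.5 and 70.1 CPM), by 0.34 (standard error 0.14, adjusted p = 0.468). *Gart* exceeded anti-PD-L1 by 0.25 and anti-Lag3 by 0.24 in the fit, with overlapping samples. *Impdh2* exceeded anti-Lag3 by 0.22 in the fit, and its lowest CB sample (227 CPM) was just above the highest anti-Lag3 sample (219 CPM). Without CB sample 1 these differences were 0.15, 0.14 and 0.14. All CB samples were higher for 2 of the 10 against anti-PD-L1 (6.94% of all genes) and for 3 against anti-Lag3 (7.68%), the third being *Ppat*. *Impdh1* and *Gmps* had negative log2 fold changes against anti-PD-L1, of -0.35 (interval -0.82 to 0.12) and -0.24 (interval -0.61 to 0.13). That of *Impdh1* was -0.07 without anti-PD-L1 sample 2 and -0.16 without CB sample 2, and that of *Gmps* -0.11 without CB sample 2. No member was called by edgeR in either comparison, where 0.370% of genes were called with anti-PD-L1 as the reference and 0.694% with anti-Lag3. With 1 sample left out, these shares were 0.0268% to 0.381% in the first comparison and 0.281% to 0.837% in the second. In each, 3 had an unadjusted p under 0.05, against 9.08% and 9.46% of all genes, and as 1 sample was left out the counts ranged from 1 (without CB sample 1) to 3 and from 0 (without anti-Lag3 sample 2) to 4. DESeq2 called 0 in both, against 1.18% and 1.85% of all genes.

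Between the single antibodies the fitted level of *Gmps* was 0.46 higher in log2 units with anti-PD-L1 (standard error 0.18, adjusted p = 0.802), with every anti-PD-L1 sample above every anti-Lag3 sample (44.3, 49.6 and 39.9 CPM). The fitted difference in *Impdh1* was 0.50 (standard error 0.23, adjusted p = 0.802), and without anti-PD-L1 sample 2 (57.9 CPM, against 38.4 and 31.7 in the other two) it was 0.22. *Impdh2* was also higher in every anti-PD-L1 sample, which made 2 of 10 against 4.01% of all genes, and *Paics* lower in every one (4.69% of all genes). *Gmps* and *Impdh1* were the 2 with an unadjusted p under 0.05, against 4.69% of all genes, and there was 1 without anti-PD-L1 sample 2 or anti-Lag3 sample 2 and 0 without anti-Lag3 sample 3. EdgeR called 0 of the 10 and 0% of all genes, and DESeq2 called 0 of the 10 and 0.0661% of all genes.

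The interaction asked whether the effect of both antibodies departed from the sum of the single effects on the log2 scale. It was largest for *Ctps*, at 0.68 (standard error 0.25, adjusted p = 0.804). Here both single antibodies had lower *Ctps* than isotype in the fit (-0.27 and -0.13) and CB a higher one (0.28). Without isotype sample 2 these single effects were -0.17 for anti-PD-L1 and -0.04 for anti-Lag3. *Pfas* had the same order of values, with single effects of -0.19 and -0.14 and a CB effect of 0.14. Its interaction was 0.47 (standard error 0.20, adjusted p = 0.804). Without isotype sample 1 its single effects were -0.12 for anti-PD-L1 and -0.07 for anti-Lag3, and the latter was -0.29 without anti-Lag3 sample 1. *Gmps* had the lowest, at -0.33 (interval -0.85 to 0.19), ranging from -0.51 to -0.20 without isotype sample 1 and CB sample 2. For *Ppat*, *Gart*, *Adsl*, *Atic* and *Impdh2* the interactions lay between -0.03 and 0.12, but that of *Ppat* was 0.35 without anti-PD-L1 sample 2. EdgeR called 0 of the 10 and 0% of all genes, 2 of the 10 had an unadjusted p under 0.05 against 5.93% of all genes, or 1 without isotype sample 1, anti-PD-L1 sample 2 or 3, anti-Lag3 sample 2 or 3 or CB sample 1 or 3, and DESeq2 called 0 and 0.0330% of all genes.

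The mean of the 10 log2 values, each centred over the 12 mice, was 0.131 ± 0.114 in CB (SD, n = 3), 0.0128 ± 0.0848 in anti-PD-L1, -0.0659 ± 0.0763 in anti-Lag3 and -0.0784 ± 0.0812 in isotype mice. The CB samples were at 0.220, 0.00294 and 0.171, all above the highest isotype sample (-0.00139), but CB sample 2 lay within the range of both single antibody groups. Anti-PD-L1 sample 2, at 0.104, was the highest outside the CB group. These means are a description of genes chosen as a set, without a test.

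**Figure D3:**
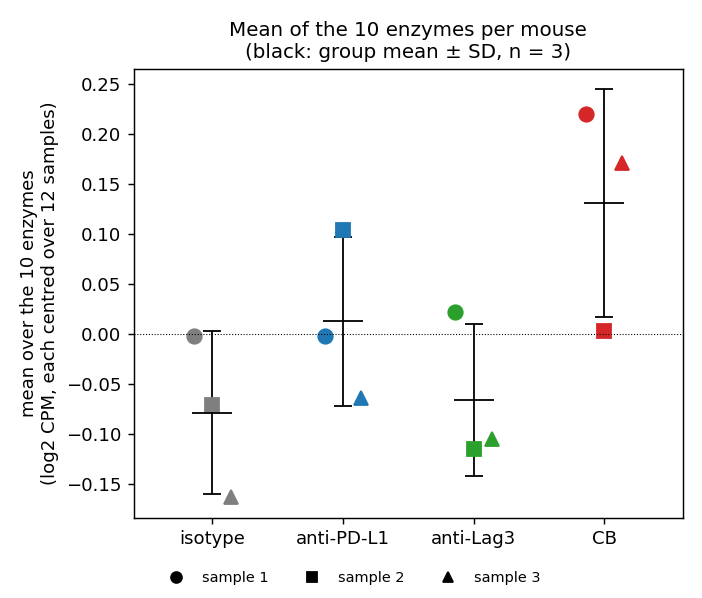
The plot shows the mean over the 10 enzymes of centred log2 CPM in each mouse (coloured symbols) with the mean ± SD of each group of 3 (black). CB samples 1 and 3 are the highest of the 12, and CB sample 2 sits at 0.00294, below anti-PD-L1 sample 2 and anti-Lag3 sample 1.

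Within the groups the correlations between the enzymes went both ways, and they were not compared with those of other genes. Of the 45 pairs, 29 had a positive Pearson correlation of their deviations from the group means over the 12 mice, 10 were above 0.5, and the median was 0.154. The closest pairs were *Pfas* with *Atic* (r = 0.915), *Ppat* with *Impdh1* (0.772), where anti-PD-L1 sample 2 was high in both, and *Gart* with *Impdh2* (0.771). *Paics* was negatively correlated with all 9 others, from -0.595 with *Impdh2* to -0.0228 with *Pfas*. Over all samples, *Impdh2* followed the mean of the other members most closely (r = 0.765) and *Paics* ran against it (-0.399). The points share their libraries and their scaling, and no p is given.

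Outside the 10, the genes whose log2 CPM over the 12 mice was most like the mean of the members, among 8674 genes with a mean of at least 5 CPM, included *Snhg9* (Pearson r = 0.944, Spearman rho = 0.797), a host transcript of small nucleolar RNA, *Rmdn3* (0.914), *Stip1* (0.908), a co-chaperone between Hsp70 and Hsp90, *Mif* (0.907), a cytokine, *Smn1* (0.901), which assembles spliceosomal particles, *Mthfd2* (0.898) and *Phf5a* (0.897), a splicing factor subunit. Of these, *Mthfd2* belongs to the folate cycle that feeds the formyl steps of GART and ATIC. The genes named were picked as the highest of the 8674. Differences between groups and the shared scaling enter these correlations, which are a description without a test.

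The neighbouring pathways were followed in 9 lists of 82 genes, of which 78 were tested. Between CB and isotype 13 of these passed the threshold, 7 higher and 6 lower, where 2.33% and 1.96% of all genes did. In pyrimidine synthesis, *Cad*, which encodes the protein of the opening reactions, rose from 87.8, 79.0 and 84.8 CPM in isotype mice to 154, 126 and 130.1 CPM in CB mice, or 0.71 in log2 units (standard error 0.13, adjusted p = 0.00139), and the call held whichever sample was left out. *Cad* was at 129, 130.2 and 113 CPM with anti-PD-L1, above every isotype sample (0.56, adjusted p = 0.184). The steps after it, *Dhodh* (0.70, adjusted p = 0.237) and *Umps* (0.34, adjusted p = 0.242), were not called. Nor was *Cmpk1*, which was lower in every CB sample (-0.705, adjusted p = 0.0741). Of the 6 tested genes of this list 4 were fitted higher and 2 lower, with a median of 0.27. *Ctps2*, the second CTP synthase gene, fell: it had 36.6, 33.8 and 41.7 CPM in isotype mice and 13.4, 21.1 and 14.7 CPM in CB mice, a difference of -1.19 in log2 units (standard error 0.27, adjusted p = 0.00854), which missed the threshold without CB sample 1 (0.0585) or CB sample 3 (0.0539). *Ctps* and *Ctps2* thus had opposite signs in CB, with *Ctps* above (10.4% of all genes) and *Ctps2* below (9.62%) the isotype samples in all 3 mice. *Ctps* was not called, and the difference between the fold changes of these 2 genes was not tested. With anti-PD-L1 *Ctps2* was at 14.1, 14.1 and 28.7 CPM, again below the isotype range (-0.97, adjusted p = 0.316).

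**Figure D4:**
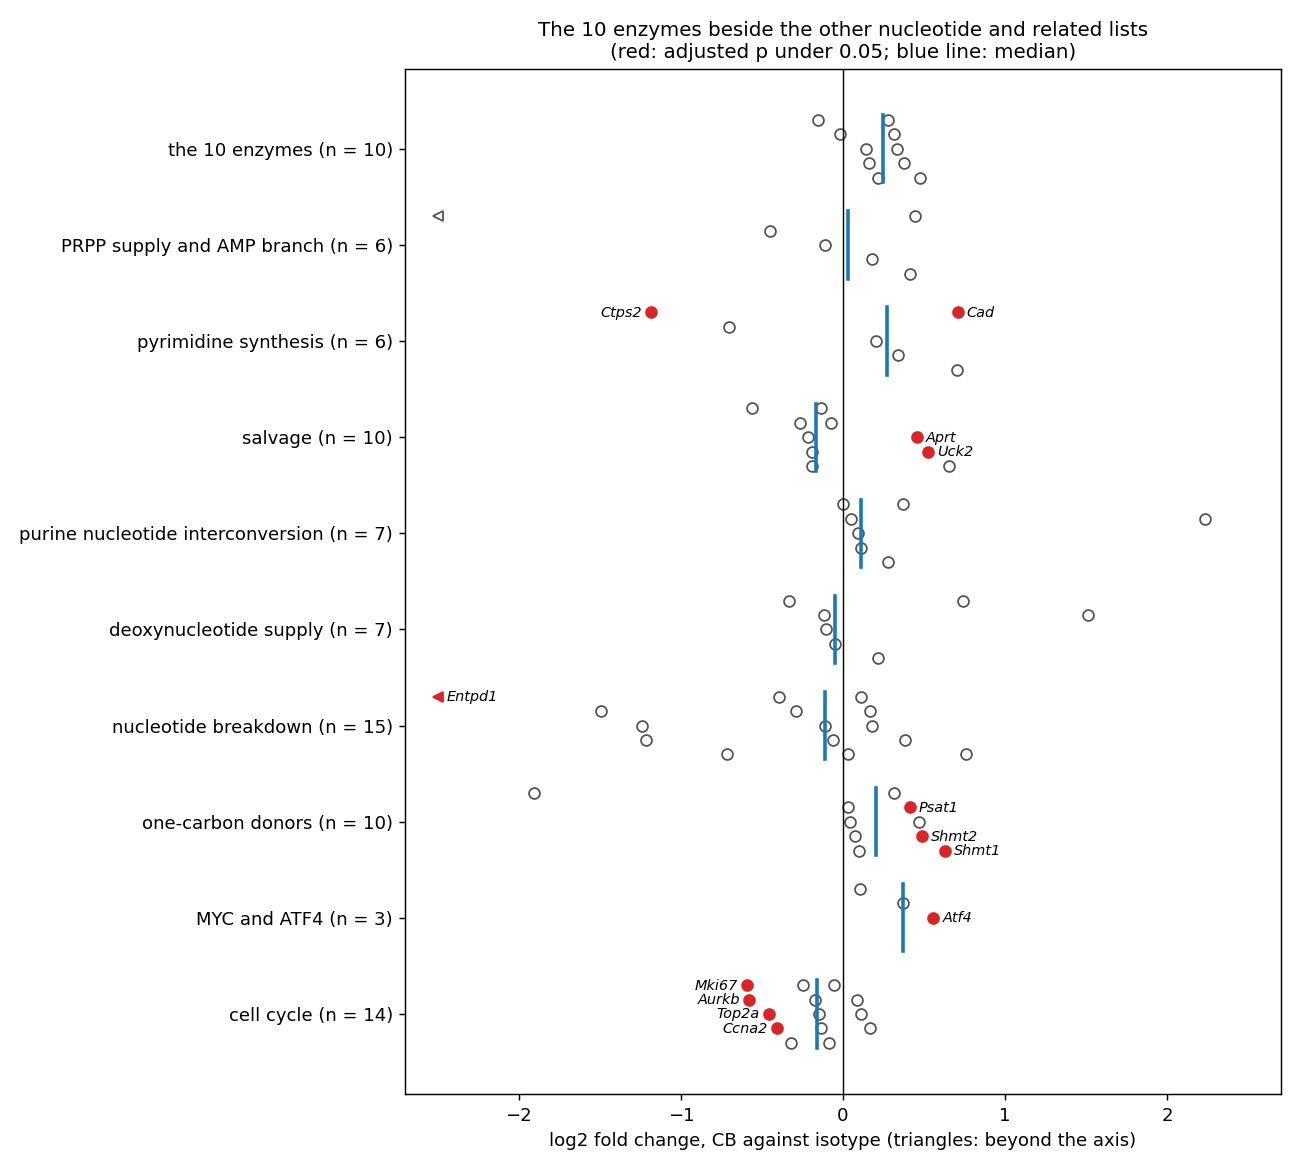
Each symbol is the log2 fold change of 1 gene between CB and isotype, by list, with called genes (adjusted p under 0.05) filled in red and named, triangles for values beyond the axis and a blue line at the median of each list. The 10 enzymes lie between -0.15 and 0.47 with none called, while *Cad* and *Ctps2* stand at opposite ends of the pyrimidine list.

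In the one-carbon list, which supplies serine and formyl groups, 3 of 10 were called higher and none lower (2.33% and 1.96% of all genes). The list had a median log2 fold change of 0.21. *Shmt2*, the mitochondrial serine hydroxymethyltransferase, had 152, 137 and 126 CPM in isotype mice and 232, 161 and 188 CPM in CB mice (log2 fold change 0.49, standard error 0.14, adjusted p = 0.0395). *Shmt1*, the cytosolic form, rose by 0.63 (standard error 0.17, adjusted p = 0.0249) and *Psat1*, of serine synthesis, by 0.41 (standard error 0.10, adjusted p = 0.0175). These calls were not firm: *Shmt2* lost its call without any 1 of the isotype samples or CB sample 1 or 3 (adjusted p 0.0516 to 0.294), without TMM (0.0715) and with only the groups compared in the fit (0.0508), *Shmt1* without isotype sample 1 or 2 or CB sample 1 or 3 (0.0586 to 0.183), and *Psat1* without isotype sample 2 or 3 or CB sample 1 (0.0648 to 0.102). *Mthfd1*, which makes the formyl donor in the cytosol, was higher in every CB sample but outside the threshold (0.47, adjusted p = 0.0587), and *Mthfd2* had a log2 fold change of 0.31 (adjusted p = 0.162).

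Of the PRPP and AMP list (6 genes) none was called, 3 were fitted higher and 3 lower, and the median log2 fold change was 0.03. *Prps1*, which makes phosphoribosyl pyrophosphate, had 93.9 to 118 CPM in isotype and 133 to 148 CPM in CB mice (log2 fold change 0.42, adjusted p = 0.0656). *Prps2*, which encodes an enzyme of the same reaction, was at -0.11 with overlapping groups (adjusted p = 0.858). In salvage, 2 of 10 were called higher (2.33% of all genes) and none lower. In the fit 3 were higher and 7 lower, with a median of -0.16. *Uck2*, a uridine-cytidine kinase, went from 114, 117 and 118 CPM to 171, 159 and 173 CPM. Its log2 fold change was 0.53 (standard error 0.11, adjusted p = 0.00494), and the call held without any 1 sample. *Aprt*, which recycles adenine, rose by 0.46 (standard error 0.11, adjusted p = 0.0151) and lost its call without isotype sample 2 (0.0747), isotype sample 3 (0.0546) or CB sample 3 (0.164). *Hprt*, which recycles hypoxanthine and guanine, had a log2 fold change of -0.07 (interval -0.31 to 0.16). None of the 7 tested interconversion genes or the 7 genes of deoxynucleotide supply was called. In deoxynucleotide supply 3 were fitted higher and 4 lower, with a median of -0.05. *Rrm1*, the large subunit of ribonucleotide reductase, was at -0.33 (adjusted p = 0.0517) and lower in every CB sample (9.62% of all genes). *Rrm2b*, a small subunit (1.51, adjusted p = 0.352), and *Dctd*, the dCMP deaminase (0.74, adjusted p = 0.457), were higher in every CB sample (10.4% of all genes). *Rrm2b* was low, at 1.84 to 2.49 CPM in isotype and 4.30 to 8.75 CPM in CB mice. Its anti-Lag3 samples had 4.26 to 8.96 CPM. *Dctd* had 5.38 to 7.045 CPM in isotype and 7.98 to 13.25 CPM in CB mice.

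Among 15 tested genes of nucleotide breakdown only *Entpd1*, which encodes the ectonucleotidase CD39, was called, and it was lower. It had 136 reads over the 3 isotype samples (39 to 56 in each) and 0 in all CB samples. Against a floor of 3 reads over the group, this was at least 51.3-fold lower. That figure holds only if reads are independent, and PCR makes them non-independent. The level of *Entpd1* in the isotype group was only 2.06 to 2.97 CPM. Anti-PD-L1 sample 2 also had 0, and anti-Lag3 samples ranged from 0.158 to 4.65 CPM. The call (adjusted p = 0.0333) was lost without any 1 isotype or CB sample or anti-Lag3 sample 2 (0.0593 to 0.125), and DESeq2 gave this gene no adjusted p. With this gene and *Adssl1*, the other tested gene of the lists with reads in isotype mice and 0 in all CB samples, at their bounds, the medians of their lists stayed the same.

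Of the regulators, *Atf4*, a transcription factor of the amino acid response, rose from 161, 178 and 217.5 CPM to 256, 254 and 308 CPM, by 0.56 (standard error 0.12, adjusted p = 0.00569), and also exceeded anti-Lag3 (0.56, adjusted p = 0.0221). The first call was lost without isotype sample 1 (0.0549) or CB sample 3 (0.0640), the second without anti-Lag3 sample 1 or 2 or CB sample 3 (0.0749 to 0.196) and without TMM (0.0516). *Myc* was low, at 11.5 to 16.3 CPM in isotype and 14.9 to 17.3 CPM in CB mice, with a log2 fold change of 0.10 (interval -0.59 to 0.80), and *Max* had 0.37 (adjusted p = 0.122). In the cell cycle list 4 of 14 were called lower and none higher, where 1.96% and 2.33% of all genes were. In the fit 3 were higher and 11 lower, with a median of -0.16. *Mki67*, the proliferation marker, fell from 443, 404 and 354 CPM to 288, 275.5 and 233 CPM (-0.59, standard error 0.11, adjusted p = 0.00140) and *Top2a* by 0.46 (adjusted p = 0.00223), both whichever sample was left out. *Aurkb* (-0.58, adjusted p = 0.0229) lost its call without isotype sample 3 or CB sample 1 or 3 (0.0990 to 0.109), and *Ccna2* (-0.41, adjusted p = 0.0334) without isotype sample 1 or 3 or CB sample 1 or 3 (0.0782 to 0.242).

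Over the 9 lists *Atf4* was the only gene called outside the comparison of CB with isotype: none of the 78 passed between either single antibody and isotype, between the single antibodies, between CB and anti-PD-L1 or in the interaction by edgeR, with 15, 8, 7, 8 and 2 genes at an unadjusted p under 0.05 in that order (anti-PD-L1 before anti-Lag3), where 7.84%, 5.21%, 4.69%, 9.08% and 5.93% of all genes were. DESeq2 called 1 of the 78 between anti-PD-L1 and isotype (0.370% of all genes), 1 between CB and anti-PD-L1 (1.18%), 5 between CB and anti-Lag3 (1.85%) and 0 in the others of these comparisons.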

How the data were processed

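Splenic responder CD4+ T cells of 12 mice gave 12 libraries with the QuantSeq 3′ kit, made from 5 ng of RNA with 18 cycles of PCR and no molecular identifiers. Per the methods and the submitters' processing notes, the authors used Cutadapt 1.18 for trimming, STAR 2.6.1a for alignment to GRCm38 and FeatureCounts 1.6.4 for counts of unique reads per gene (annotation release and strand setting are not given in the sources used here). They deposited these raw counts, whole numbers without normalization for 56691 genes and 114 spike-ins, together with rlog values, on a log2 scale, from DESeq2 in R 4.0 for 10492 rows. Spike-ins were left out here.

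Counts of genes with at least 30 reads over the 12 samples were scaled by TMM and fitted in edgeR 4.0.16 (R 4.3.3) with 1 mean per group, quasi-likelihood tests in 7 comparisons and p-values adjusted by Benjamini-Hochberg over the 15138 genes that passed. Called means an adjusted p under 0.05. CPM are counts scaled to the TMM-adjusted library size, and means of members used log2 CPM with a prior count of 2. Alternatives were DESeq2 1.42.0, limma 3.58.1 on the deposited log2 (rlog) values, tests against a log2 fold change of 0.2, other scalings and filters, the sample number as a block, fits of only the groups compared and each sample left out in turn. The fits were tested on simulated data. Intervals are 95% intervals of the fit, and those and the floor of 3 reads rest on reads, which PCR makes non-independent.

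Symbols and positions came from GENCODE M21, which holds 52073 of the 56691 identifiers, overlaps and copies from the same annotation and blastn 2.17.0 with the last 500 bases, and promoter windows from RefSeq. Genes named are all 10 members, listed genes that were called or define their list, and the 8 genes most like the mean of members, of which 1 is not reported here, nor is 1 list of cell type markers. The members, the lists and this rule were chosen with earlier results of these data known.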

Additional observations from a re-analysis of the deposited data

How the results depend on the processing

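In CB against isotype 0 of the 10 enzymes were called by edgeR, and 1 (*Gart*) was called with no filter beyond 1 read (where 3.96% of all genes were), with filterByExpr (5.11%), with limma on the deposited rlog values (836 of 10448 genes) and with the replicate block (5.57%), 2 (*Gart* and *Impdh2*) with DESeq2's Wald test against 0 (6.06%), and 0 to 2 as each sample was left out (2.64% to 4.72%). The count stayed 0 with DESeq2's size factors, without TMM, without the gene with the most counts, with the tests against 0.2 and with only the groups compared, and in the other 6 comparisons under every alternative. The number of enzymes with every CB sample above every isotype sample was 5 to 8 as samples were left out (14.2% to 15.8% of all genes) and 4 without TMM (9.11%). The mean of members differed between CB and isotype by 0.210, and by 0.134 to 0.210 under the other scalings and rlog and 0.165 to 0.274 as samples were left out. Of 1600 values of the members' fold changes in the 7 comparisons under alternatives, 47 changed sign, 42 of them with a sample left out, in 20 of 70 fold changes of at most 0.208 in size. As samples were left out, these ranged between CB and isotype from -0.0921 to 0.0209 for *Paics* and -0.278 to 0.0406 for *Impdh1*, and between anti-PD-L1 and isotype from -0.0748 to 0.352 for *Ppat* and -0.0859 to 0.373 for *Impdh1*. Between anti-Lag3 and isotype they ranged from -0.0144 to 0.0401 for *Paics*, -0.0424 to 0.154 for *Adsl* and -0.0165 to 0.146 for *Atic*. Between CB and anti-PD-L1 they ranged from -0.0140 to 0.106 for *Adsl* and -0.00120 to 0.149 for *Impdh2*, and between CB and anti-Lag3 from -0.103 to 0.00993 for *Paics*. Between anti-PD-L1 and anti-Lag3 they ranged from -0.273 to 0.154 for *Ppat*, -0.0688 to 0.0530 for *Gart*, -0.145 to 0.0967 for *Pfas*, -0.00494 to 0.119 for *Adsl* and -0.0710 to 0.133 for *Atic*. In the interaction they ranged from -0.0762 to 0.351 for *Ppat*, -0.120 to 0.0763 for *Adsl*, -0.0599 to 0.119 for *Atic*, -0.219 to 0.240 for *Impdh1* and -0.113 to 0.0373 for *Impdh2*. The other 5 were *Ppat* between the single antibodies without TMM (-0.0399), with rlog values (-0.0123) and with the replicate block (-0.00614), and *Atic* without TMM between the single antibodies (-0.0248) and in the interaction (-0.0252). The cause was not tested. The 13 listed genes called between CB and isotype (4.29% of all genes) became 6 with edgeR's test against 0.2 (2.40%), 3 with DESeq2's (1.54%), 19 with DESeq2's test against 0 (6.06%) and 5 to 15 as samples were left out (2.64% to 4.72%). Sample numbers were no stated pairing: 8 of 18 same-numbered pairs correlated above 0.1 (-0.0565 to 0.194 over 8684 genes), although 9 of 12 samples matched their own number best, and the replicate block gave 843 genes called between CB and isotype in place of 649, with *Gart* at an adjusted p of 0.0319. With 3 mice a group, fold changes of these enzymes within the intervals given were not resolved.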
